A study of Homo sapiens with 8 samples.

Results

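The zinc finger genes of chromosome 19 were examined by ATAC-seq in U2OS cells, a human osteosarcoma line. A gene was included if it was annotated as protein-coding on chromosome 19 and its symbol began with ZNF, which gave 249 of 19970 protein-coding genes on chromosomes 1 to 22 and X. ATAC-seq marks open chromatin through the sites at which the Tn5 transposase inserts sequencing adapters. Of the 8 libraries, 4 were made from wild-type (WT) cells and 4 from a derivative line in which the histone methyltransferase gene ASH1L had been disrupted by CRISPR/Cas9 (ASH1L-/-). Cells were either unchallenged or harvested 3 h after 20 J per square metre of UV-C light, with 2 libraries in each of the 4 groups. All cells were treated with deoxyribonuclease before harvest to remove the DNA of dead cells. The ASH1L-/- cells descended from isolated single colonies, so that an effect of the knockout and a property of the colony cannot be told apart. The labels call the 2 libraries of each group biological replicates.

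Most of these genes encode DNA-binding repressors of the KRAB family. Their fingers, encoded in tandem by a single long last exon, read DNA sequence, and their KRAB domain recruits the corepressor TRIM28 and through it the H3K9 methyltransferase SETDB1. Many of them bind transposable elements. The genes arose by repeated local duplication, which left them in dense clusters along chromosome 19. In many cell types the bodies and last exons of these genes carry H3K9me3, a mark of closed chromatin, while their promoters remain active.

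The peak list of a library held between 158198 and 220783 accessible regions. The lowest background pileup of a list, a relative measure of sequencing depth, lay between 1.74 and 2.67 in the WT libraries. For ASH1L-/- libraries it was 5.87 and 1.39 without UV and 2.45 and 2.81 with UV, so that the deepest and the shallowest library were replicates of the same group. The promoter of the targeted gene, ASH1L, had a region in all 8 lists, at percentiles 81.1 to 93.7 in WT and 89.1 to 97.6 in ASH1L-/- libraries. The presence of that region therefore did not check the genotype labels. Of 8 genes fixed as markers of bone-forming and mesenchymal cells, RUNX2, VIM and COL1A1 had a promoter region in all 8 lists and ALPL in none. Of 6 genes of other cell types, the epithelial genes EPCAM and KRT8 had a region in all 8, while PTPRC, CD3E, CDH1 and ALB had none in any list. Replicate 2 of the WT cells post UV stood apart, with the lowest median percentile over the promoters of all genes (78.5, against 83.8 to 89.8 in the other 7 libraries).

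Promoters of the ZNF genes were more often open than those of protein-coding genes at large. Promoters were taken as the 1 kb on either side of the start of the main (Ensembl canonical) transcript. A promoter was called open in a library when a region of that list overlapped it, and closed for short when none did. By this measure 197 of 249 ZNF genes (79.1%) were open in all 8 libraries, against 59.1% of all protein-coding genes and 82.0% of the 267 ZNF genes on other chromosomes. No library had a promoter region at 26 ZNF genes (10.4%, against 17.6% of all genes), and the remaining 26 were open in some libraries. The strength of a region was expressed as the percentile of its fold enrichment among the regions of the same list, since fold enrichments are not comparable between libraries. The median ZNF promoter lay between percentiles 91.8 and 94.7 of the 8 lists, compared with 78.5 to 89.8 for all genes.

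The strongest ZNF promoters were near the top of every list. Of the 197 genes open in all libraries, 138 had a mean percentile of at least 90. The 10 highest were ZNF442, ZNF558, ZNF549, ZNF285, ZNF548, ZNF8, ZNF547, ZNF136, ZNF574 and ZNF527. ZNF442 ranged from percentile 98.5 to 99.8 over the 8 lists. At the other end of those 197 stood ZNF575, with a mean percentile of 42.6. ZNF91, a repressor of SVA and other retroelements, had a promoter region at percentiles 86.9 to 94.4. ZNF350, which encodes a partner of BRCA1, lay between percentiles 89.6 and 95.2. ZNF382, ZNF541 and the neuronal gene ZNF536, by contrast, each had a promoter region in 1 library, at percentiles 15.1, 32.6 and 15.7 respectively. ZNF331 was open in all 8 lists at lower percentiles, from 53.1 to 82.2.

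Closed promoters were concentrated in a single gene cluster. When ZNF genes more than 1 Mb apart were split, the 249 genes fell into 16 clusters, of which 7 had at least 10 members and together held 228. The cluster that runs from ZNF101 to ZNF254 next to the centromere (hg38, chromosome 19, 19668796 to 24129968) held 37 genes. Only 10 of them were open in all 8 libraries and 21 were open in none, so that this cluster contained 21 of the 26 ZNF genes without any promoter region. Among them were ZNF43, ZNF85, ZNF90, ZNF98, ZNF99, ZNF100, ZNF208, ZNF254, ZNF257 and ZNF676. The other 5 were ZNF792, ZNF404, ZNF229, ZNF534 and ZNF677. In the remaining large clusters, 13 of 16, 25 of 26, 24 of 26, 21 of 24, 35 of 40 and 53 of 59 genes were open in all 8 libraries.

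**Figure D1:**
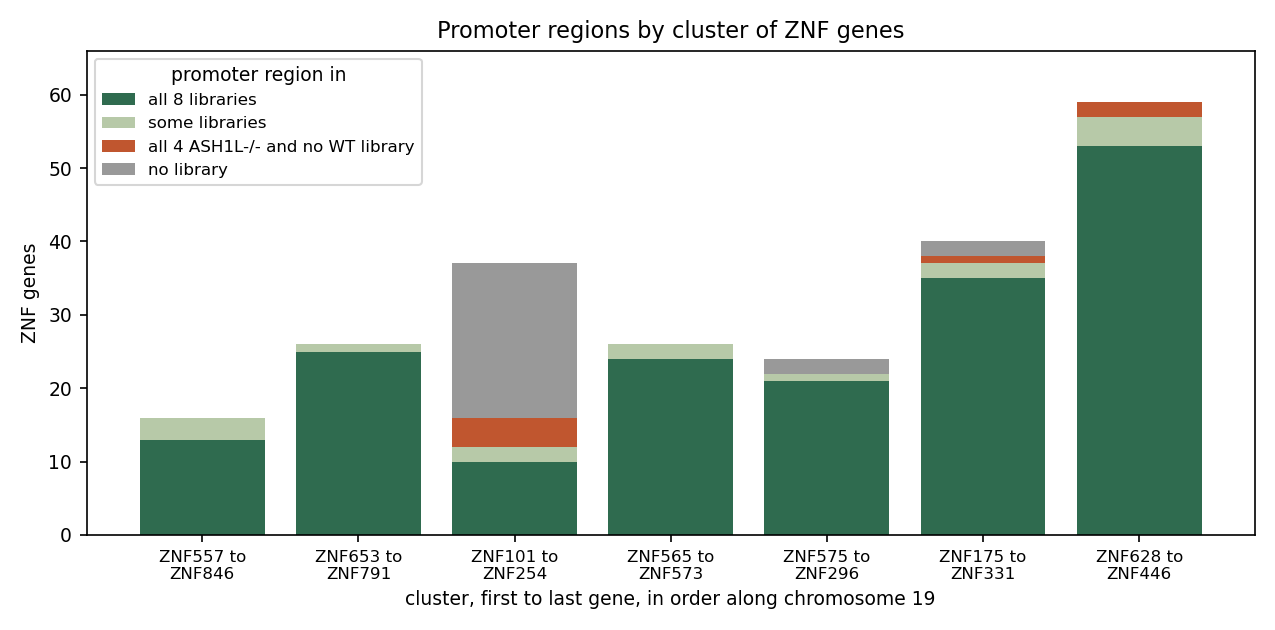
The stacked bars give, for each of the 7 clusters with at least 10 ZNF genes, the number of genes (y axis) by the libraries in which a promoter region was found. The cluster from ZNF101 to ZNF254 held 21 genes with no promoter region in any library and 10 with a region in all 8.

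The whole interval from ZNF101 to ZNF254 was poor in accessible regions. It held between 35 and 56 regions in the 8 lists, or 7.85 to 12.6 regions per Mb, while chromosome 19 as a whole held 79.8 to 99.7 per Mb. Open genes lay among closed ones along it, and closed genes also formed runs, such as ZNF90, ZNF486, ZNF737 and ZNF626. ZNF91, at a mean percentile of 91.0, lay between the closed ZNF724 and the weaker ZNF675 at 73.5. The 10 open genes had mean percentiles from 68.3 at ZNF101 to 95.3 at ZNF682. Poorly mapped reads had been removed by the authors, which can empty duplicated sequence. In the 26 promoters without a region, a median of 96.3% of 50-base windows occurred once in the genome (range 82.8% to 100%), compared with 99.0% in the 197 open in all libraries.

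More ZNF promoters were open in ASH1L-/- than in WT cells. WT libraries had 204, 205, 205 and 204 ZNF genes with a promoter region, whereas ASH1L-/- libraries had 213, 216, 215 and 213, so the ranges did not overlap. Over all protein-coding genes the ranges did overlap, at 13465 to 14195 in WT and 13292 to 14287 in ASH1L-/- cells. The shallowest library, replicate 2 of the unchallenged ASH1L-/- cells, had the fewest open promoters over all genes and the most ZNF promoters, 216. In the cluster from ZNF101 to ZNF254 there were 10 open promoters in each WT library and 15, 15, 16 and 14 in the ASH1L-/- libraries. UV light was not accompanied by such a shift, with 204 to 216 open ZNF promoters in unchallenged and 204 to 215 in irradiated cells.

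**Figure D2:**
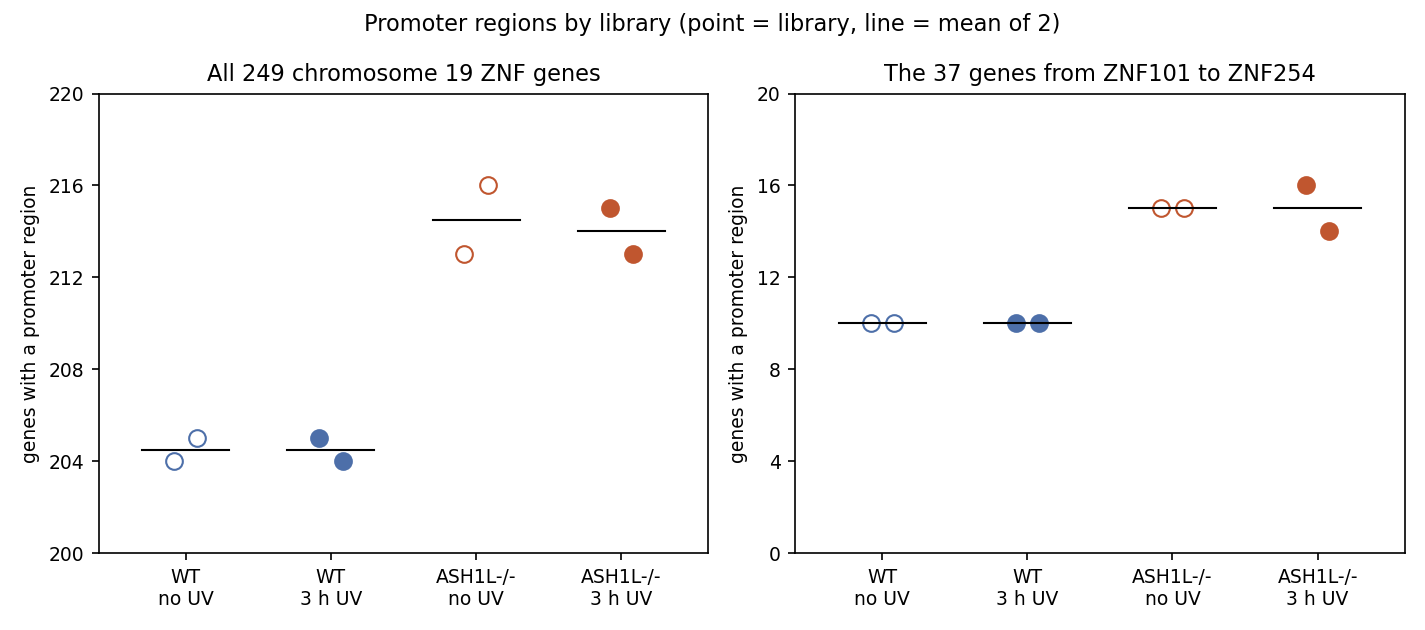
Each point is the number of ZNF genes with a promoter region (y axis) in 1 library, for all 249 genes on the left and for the 37 genes from ZNF101 to ZNF254 on the right, and lines are means of 2 libraries. The left axis does not start at 0. All 4 ASH1L-/- libraries (213 to 216) lie above all 4 WT libraries (204 and 205).

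The genes behind this difference could be named. A promoter region in all 4 ASH1L-/- libraries and in no WT library was found at 7 ZNF genes, which is 2.81% of the 249 and compares with 50 of 19970 protein-coding genes (0.250%). They were ZNF93, ZNF431, ZNF493 and ZNF726 in the cluster from ZNF101 to ZNF254, ZNF578 further along the long arm, and ZNF154 and ZNF132 in the last cluster before the telomere. Between 7 and 8 genes had this pattern when any single library was left out, a count that by this rule can only stay or rise. With a q-value of at most 0.01, only ZNF431, ZNF726 and ZNF132 of the 7 kept the pattern. The reverse, a region in all WT and no ASH1L-/- library, was seen at 0 ZNF genes, against 0.0701% of all genes (14 genes). Of the 267 ZNF genes on other chromosomes, 2 (0.749%) were open in the ASH1L-/- libraries alone.

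ZNF132 (ENSG00000131849.14, minus strand, 58432814 to 58440153) had the strongest of these 7 promoters. It lay at percentiles 86.2 and 77.8 in unchallenged and 88.4 and 90.4 in irradiated ASH1L-/- libraries, with fold enrichments of 5.54, 6.15, 11.0 and 10.9. No WT list had a region there. ZNF726 (plus strand, 23914876 to 23945159) followed at percentiles 69.7, 73.5, 80.4 and 56.5 in the same order of libraries. ZNF431 (plus strand, 21142024 to 21196053) was at percentiles 63.6, 70.3, 55.1 and 68.5, in the middle to upper part of each list.

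The other 4 were weaker and more variable. ZNF493 had percentiles of 59.1, 70.3, 47.0 and 32.6 in the ASH1L-/- libraries. ZNF93, a repressor of LINE-1 elements, had percentiles of 24.0, 70.3, 23.8 and 32.6, so that 3 of its 4 regions stood in the lower part of their lists. ZNF578 was at percentiles 53.1, 23.7, 58.3 and 66.7. ZNF154, known for promoter hypermethylation in tumours, was at percentiles 69.7, 23.7, 47.0 and 48.0. Fold enrichments for these 4 genes were between 2.18 and 5.02. In the lists of ASH1L-/- cells these regions were thus weak, and a promoter in WT cells just under the limit of the list would count as closed.

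ZNF233 had a wider gap between the genotypes than any of these 7, but fell outside the rule because of a single weak region. It is named here after its values were seen. Its promoter (ENSG00000159915.13, transcription start at 44259886) was at percentiles 97.4, 97.9, 96.2 and 97.5 in the ASH1L-/- libraries, with fold enrichments of 11.5 to 15.8. Replicate 2 of the unchallenged WT cells had a region there at percentile 16.5, with a fold enrichment of 2.56, and the other 3 WT libraries had none. ZNF253, next to ZNF93, had a region in 3 ASH1L-/- libraries (percentiles 35.1, 40.5 and 33.5) and in no WT library.

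**Figure D3:**
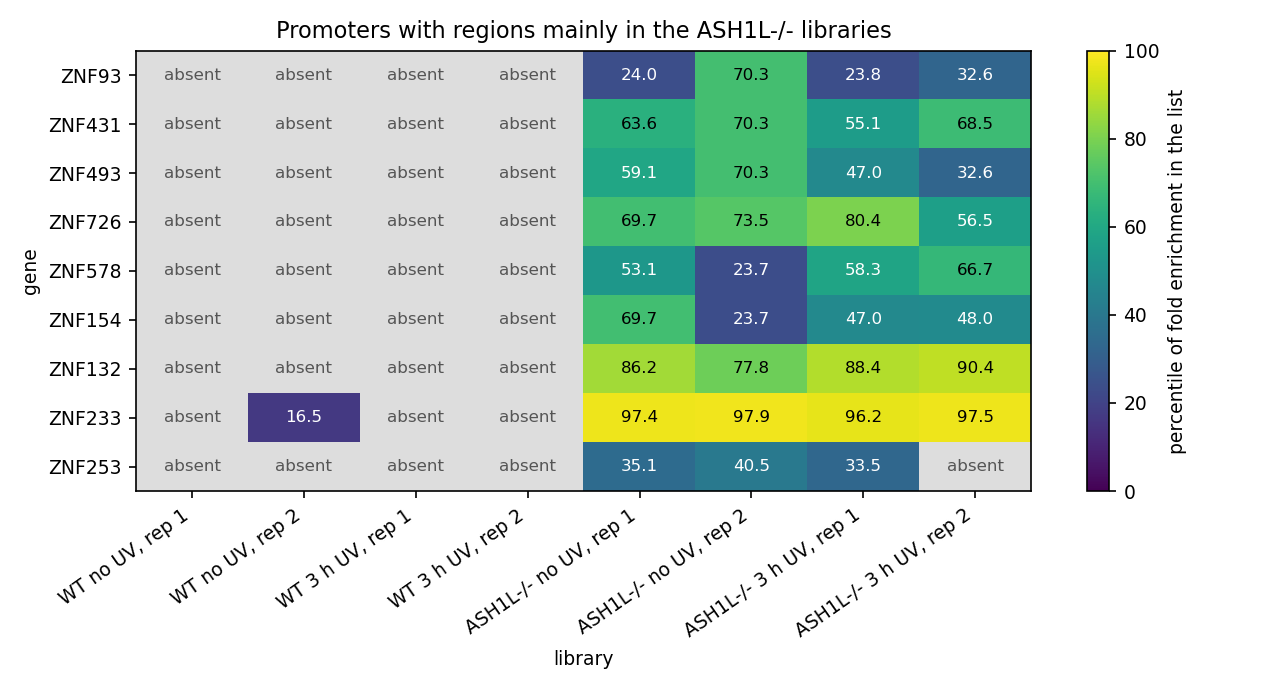
Each cell gives the percentile of the promoter region within the list of that library (columns, colour scale from 0 to 100), and grey cells mark libraries without a region. The first 7 genes have a region in all 4 ASH1L-/- libraries and no WT library; ZNF233 lies above percentile 96 in ASH1L-/- cells and ZNF253 is present in 3 of those libraries.

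The promoter sequences of 4 of these genes are shown. ZNF726 and ZNF431 lie in the cluster from ZNF101 to ZNF254. For comparison with them, a gene of that cluster open in all libraries (ZNF682) and a gene open in none (ZNF257) are added. ZNF132 and ZNF154 lie in the last cluster before the telomere. Each sequence is the 180 bases just before the RefSeq start on hg38, 5′ to 3′ on the strand of the gene. Capitals mark the ETS factor motif CCGGAAG or its reverse complement. No sequence was at hand for ZNF233 or ZNF676.
ZNF132, chr19:58440154-58440333, minus strand: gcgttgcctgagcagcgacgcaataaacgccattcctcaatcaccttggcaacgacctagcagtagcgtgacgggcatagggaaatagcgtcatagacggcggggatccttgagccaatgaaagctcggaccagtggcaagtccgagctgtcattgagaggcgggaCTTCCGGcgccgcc
ZNF726, chr19:23914706-23914885, plus strand: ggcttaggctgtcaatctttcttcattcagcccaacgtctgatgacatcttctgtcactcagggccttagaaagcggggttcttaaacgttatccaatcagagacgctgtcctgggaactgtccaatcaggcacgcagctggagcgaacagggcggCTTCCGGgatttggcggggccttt
ZNF431, chr19:21141860-21142039, plus strand: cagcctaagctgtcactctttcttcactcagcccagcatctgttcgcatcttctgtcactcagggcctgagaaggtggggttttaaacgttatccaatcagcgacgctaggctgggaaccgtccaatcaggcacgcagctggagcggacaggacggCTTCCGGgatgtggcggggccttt
ZNF154, chr19:57709205-57709384, minus strand: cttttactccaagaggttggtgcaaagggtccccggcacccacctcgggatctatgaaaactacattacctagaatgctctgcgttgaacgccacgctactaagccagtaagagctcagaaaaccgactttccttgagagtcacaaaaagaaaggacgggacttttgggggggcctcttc
ZNF682, chr19:20039506-20039685, minus strand: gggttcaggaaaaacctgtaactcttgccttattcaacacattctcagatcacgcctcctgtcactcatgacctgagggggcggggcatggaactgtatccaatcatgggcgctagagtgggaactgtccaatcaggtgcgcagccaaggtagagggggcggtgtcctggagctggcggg
ZNF257, chr19:22052304-22052483, plus strand: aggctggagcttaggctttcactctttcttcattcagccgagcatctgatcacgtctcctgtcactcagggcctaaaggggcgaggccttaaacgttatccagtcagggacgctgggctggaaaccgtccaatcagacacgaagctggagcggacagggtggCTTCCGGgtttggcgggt

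ZNF promoters shared sequence features, several of which were also frequent among the closed ones. In the 300 bases around the RefSeq start (250 before and 50 after), searched on both strands, CCGGAAG was found in 47.1% of the 208 ZNF promoters whose RefSeq start lay within 1 kb of the canonical start, compared with 14.4% of 15315 protein-coding promoters. It was present in 74 of the 168 that were open in all libraries, in 14 of 20 that were open in none and in 5 of the 7 open in ASH1L-/- cells alone. ZNF726, ZNF431 and the closed ZNF257 carried it at 17, 17 and 11 bases before the start. CCAAT, the motif of NFY, was in 55.8% of ZNF promoters and 36.6% of all, with 52.4% of those open in all libraries and 16 of the 20 open in none. GGGCGG, the motif of SP1, was in 69.2% and 59.2% respectively. TATAAA, the TATA box, was rarer in ZNF promoters (1.92%) than in all (9.64%). AAGATGG (YY1), TGANTCA (AP-1) and TCGCGA were in 8.17%, 6.25% and 3.85% of ZNF promoters, and in 6.43%, 5.75% and 4.47% of all. AAGATGG was in 17 of the 168 promoters open in all libraries and in 0 of the 20 open in none. None of these splits by state was tested. The motifs were matched letter for letter, matches to different motifs could overlap, and a match does not show binding.

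Open and closed ZNF promoters differed in their number of CG dinucleotides over all clusters, but hardly within the cluster from ZNF101 to ZNF254. The median was 21.5 in the 168 promoters open in all libraries and 10 in the 20 open in none. Promoters open in ASH1L-/- cells alone had a median of 14, with a range of 10 to 21, and all protein-coding promoters had 22. Within that cluster, however, 9 promoters open in all libraries had a median of 11 and 15 closed promoters had 10. Their ranges, 9 to 18 and 8 to 16, overlapped.

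The percentile of promoters open in all 8 libraries was next compared between the genotypes. No ZNF gene, and none of the 11802 genes tested, passed an adjusted p of 0.05 in limma (Benjamini-Hochberg), with the lowest adjusted p of a ZNF gene at 0.824. At an unadjusted p below 0.05 there were 13 of 197 ZNF genes and 5.52% of all genes tested. Without replicate 1 of the WT cells post UV, limma called 10 ZNF genes and 8.96% of all genes. That fit leaves 1 library in its group, so its counts carry little weight. With all 8 libraries, ZNF genes shifted by a median of 0.66 percentile points towards ASH1L-/- cells, and all genes by 1.09.

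Genotype differences without overlap of the 4 and 4 libraries were few, and those higher in ASH1L-/- cells were about as frequent as over all genes. All 4 ASH1L-/- libraries were above all WT libraries at ZNF83, ZNF701 and ZNF614, 3 of 197 ZNF genes against 1.78% of all genes. All 4 were below at ZNF528, ZNF600 and ZNF551, again 3 genes, against 0.729%. Ranked among promoters alone, 5 ZNF genes were higher (2.03% of all genes) and 1 was lower (1.36%). For each such gene the two-sided exact permutation test gives p = 0.0286, the smallest value that 4 against 4 libraries allow, and none passed adjustment over all genes (lowest adjusted p 0.994). Of these 6 genes, 5 lay in the cluster of 40 genes from ZNF175 to ZNF331, which held 35 of the 197 genes. This count joins both directions and was not tested.

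ZNF83 and ZNF701 are neighbours and had the larger differences. ZNF83 was at percentiles 65.0, 56.0, 61.5 and 55.3 in WT cells, and each ASH1L-/- library was higher, at 77.5, 77.9, 77.5 and 75.8. ZNF701 was at 68.3, 67.6, 70.2 and 59.3 in WT and at 84.9, 74.0, 82.0 and 80.4 in ASH1L-/- libraries. The mean differences were 17.7 and 14.0 percentile points. In the same cluster the order was reversed at ZNF528, with 89.7, 90.8, 92.8 and 96.8 in WT and 89.6, 81.4, 85.5 and 86.7 in ASH1L-/- libraries.

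After UV, promoter percentiles were lower at most genes, and the difference was smaller at ZNF promoters. The median difference, UV minus unchallenged, was -0.70 percentile points over 197 ZNF genes and -2.85 over all 11802 genes. Without replicate 2 of the WT cells post UV these medians were -0.54 and -1.81. All 4 UV libraries were below all 4 unchallenged libraries at 23 ZNF genes (11.7%, against 21.1% of all genes), and above them at 3 (1.52%, against 1.06%). ZNF promoters are high in the lists, where a percentile has little room to change, and the shares were therefore also taken at like levels. Between percentiles 90 and 95, 9.68% of 62 ZNF genes and 25.6% of 2249 genes were lower after UV. At percentile 95 or more these shares were 15.8% of 76 and 22.1% of 2952. Whether these shares differ beyond chance was not tested.

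The direction depended on what the promoters were ranked against. Ranked among all promoter regions instead of all regions, the ZNF promoters were higher by a median of 4.45 percentile points after UV and all promoters by 0.40. On that scale 23 ZNF genes were without overlap higher after UV (11.7%, against 6.65% of all genes) and 9 lower (4.57%, against 6.21%). The median ZNF promoter was thus slightly lower relative to the whole list, and higher relative to other promoters. On the percentile among all regions limma called 0 genes. There, the lowest adjusted p of a ZNF gene was 0.0946, and an unadjusted p below 0.05 was reached by 43 ZNF genes (21.8%) and 28.6% of all genes. On the logit of the percentile, which spreads the top of the scale, limma called 25 ZNF genes (4 higher, 21 lower) and 16.2% of all genes. Ranked among promoters, limma called 11 ZNF genes (10 higher, 1 lower) and 2.56% of all genes. These counts depended on the WT libraries post UV, although a fit without a replicate of that group leaves 1 library in it. Without replicate 1 of that group limma called 50 ZNF genes and 33.5% of all genes on the percentile, and without replicate 2 it called 8 and 2.59%.

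**Figure D4:**
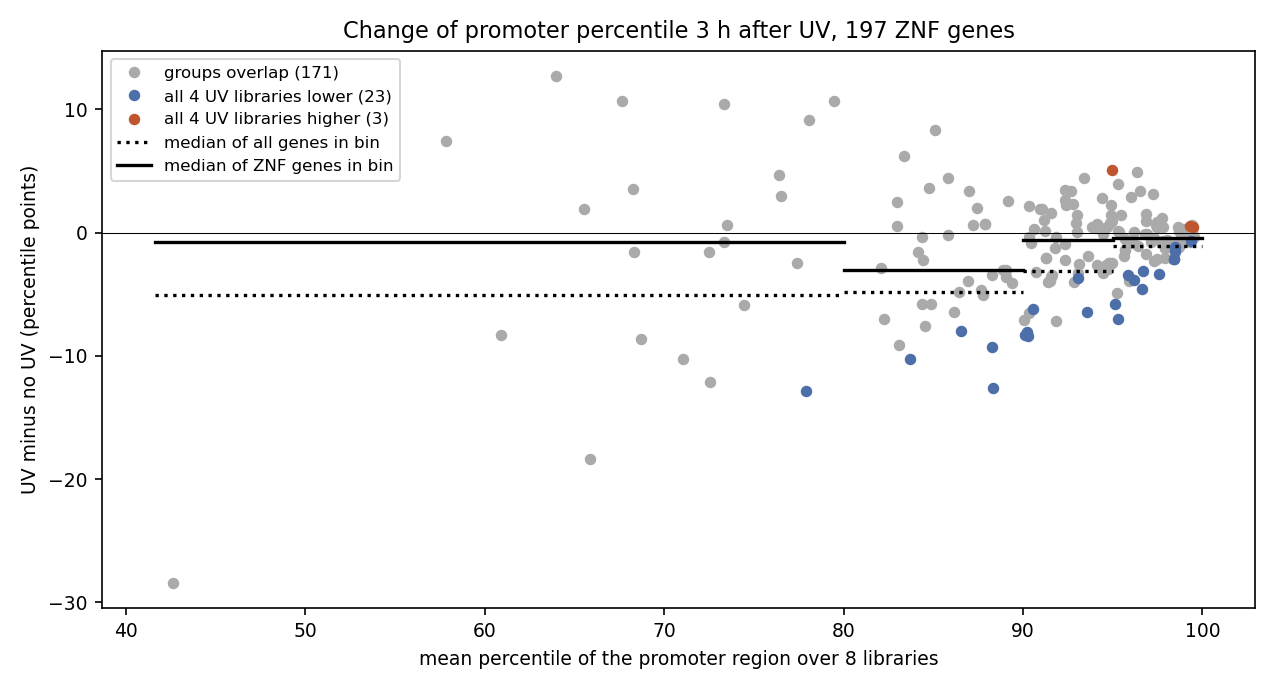
Each point is 1 of the 197 ZNF genes with a promoter region in all 8 libraries, with its mean percentile (x axis) and its mean difference between UV and unchallenged libraries in percentile points (y axis). Coloured points are the 23 genes lower and 3 genes higher without overlap, and the median of ZNF genes (solid line) lies above that of all genes (dotted line) in each of the 4 bins.

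ZNF274 was lower after UV on each of these 3 scales. It encodes a KRAB zinc finger protein that brings SETDB1 to the 3′ exons of other ZNF genes. Its WT percentiles were 99.2 and 98.6 before and 93.8 and 84.5 after irradiation. Those of ASH1L-/- cells were 98.6 and 98.7 before and 95.5 and 93.3 after it. The lists of irradiated cells were all below those of unchallenged cells, with a mean difference of -7.02 points. The adjusted p in limma was 0.0981 on the percentile, 0.00131 on its logit and 0.0353 among promoters.

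ZNF222 was higher after UV on each of the 3 scales. Its promoter went from percentiles 88.8 and 91.0 to 95.6 and 97.5 in WT cells, and from 95.1 and 94.8 to 98.6 and 98.4 in ASH1L-/- cells. The mean difference was 5.06 points, with an adjusted p in limma of 0.0946 on the percentile, 0.0164 on the logit and 0.0136 among promoters. The other 2 genes higher without overlap, ZNF527 and ZNF549, were near the top of the lists and moved by 0.56 and 0.45 points.

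The 5 largest differences without overlap towards lower values were at ZNF114, ZNF460, ZNF865, ZNF761 and ZNF576, with mean differences of -12.9, -12.6, -10.3, -9.30 and -8.40 percentile points. At ZNF460 the percentiles were 96.8, 93.1, 96.3 and 92.5 in unchallenged and 86.7, 76.9, 81.2 and 83.3 in irradiated libraries, WT before ASH1L-/-. At ZNF114 they were 85.3, 82.4, 83.5 and 86.3 in unchallenged and 77.1, 74.0, 62.3 and 72.6 in irradiated libraries. For each of these 5 genes, the lack of overlap by which it was chosen fixes the exact permutation test (two-sided) at p = 0.0286. After adjustment over all genes the lowest value was 0.129. ZNF91, ZNF350 and ZNF420 had overlapping groups, with differences of 1.88, 2.29 and -2.65 points.

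By presence in 4 against 0 libraries, no ZNF promoter separated irradiated from unchallenged cells. The number with a region in all 4 UV and no unchallenged library was 0, against 0.240% of all genes (48 genes), and the number with the reverse pattern was 0 against 0.0300% (6 genes). At shares this low, a count of 0 among 249 genes says little. A region in more UV than unchallenged libraries was found at 10 ZNF genes (4.02%, against 12.1% of all genes). The reverse was found at 9 (3.61%, against 7.56%). Only promoters open in some but not all libraries can show either pattern, and these were 10.4% of ZNF genes and 23.3% of all genes. The response to UV was also compared between the genotypes, where a fit without a library leaves 1 library in its group. No ZNF gene passed the UV by genotype term of limma (lowest adjusted p 0.9999), and an unadjusted p below 0.05 was found at 13 ZNF genes and 2.54% of all genes. Without replicate 1 of the WT cells post UV, 10 ZNF genes and 5.12% of all genes passed. Every library moved one way in WT and the other way in ASH1L-/- cells at 9 ZNF genes (4.57%, against 2.05% of all genes).

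The partners of KRAB zinc finger proteins were open as well. Of 20 genes for corepressors and heterochromatin factors, 19 had a promoter region in all 8 libraries and UHRF1 had none in its window. After UV 9 were lower without overlap (21.1% of all genes were) and 2, TASOR and EHMT1, were higher (1.06% of all genes), while 0 separated by genotype. These 20 genes were picked for their role, and the difference from all genes was not tested. TRIM28, the corepressor bound by KRAB domains, was at percentiles 93.9 to 99.8 and its groups overlapped. SETDB1 was lower after UV, at 96.0, 96.0, 93.9 and 95.1 in unchallenged and 91.3, 82.4, 84.2 and 89.2 in irradiated libraries (two-sided exact permutation test, p = 0.0286).

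The last exons, which encode the fingers, held regions at about the share of genes at large, but fewer for their length. Regions that also overlapped a promoter window of any gene were left out of this count. In each library 20 to 39 of the 249 ZNF genes had a region in the last exon (8.03% to 15.7%, against 11.9% to 16.1% of all genes and 16.2% to 24.9% of the ZNF genes on other chromosomes). ZNF last exons are long, with a median of 3338 bases compared with 1415 for all genes. Per Mb of last exon there were 21.6 to 42.1 ZNF genes with such a region and 56.9 to 76.7 genes at large, and the ranges did not overlap. Over the 8 libraries 80 ZNF genes (32.1%, against 33.4% of all genes) had a last exon region at least in 1 library, 39 of them in exactly 1, and 169 had none.

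Where a last exon held a region, it was usually weaker than the promoter. The median last exon region lay at percentiles 59.2, 46.7, 35.1 and 40.5 in unchallenged and 58.6, 64.9, 63.4 and 70.4 in irradiated libraries, WT before ASH1L-/-. The median promoter exceeded it by between 23.1 and 59.6 points in the 8 libraries. Among genes with both, the promoter was the stronger in 26 of 35 in replicate 1 of the unchallenged WT cells and in 25 of 27 in replicate 1 of the unchallenged ASH1L-/- cells. The number of ZNF genes with a last exon region was 27 to 39 in unchallenged and 20 to 29 in irradiated libraries, and these ranges overlapped.

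A few last exons held a region in every library. A last exon region in all 8 libraries was found at 9 ZNF genes (3.61%, against 4.95% of all genes), namely ZNF699, ZNF562, ZNF565, ZNF566, ZNF529, ZNF420, ZNF283, ZNF404 and ZNF582. At 8 of them, all except ZNF562, the regions of the 8 lists joined into a shared site, and each of the 8 sites lay entirely in the last exon and mostly in coding sequence. Their median width was 1156 bases, compared with 186 bases for the 64 last exon sites seen in 1 library, and their median mean percentile was 91.4, compared with 23.7. A site joined from more libraries is wider by construction, and the strength of the sites was graded. Those in 7 libraries had mean percentiles from 44.6 to 72.1, and the weakest in all 8, at ZNF420, had 60.6. Another transcript of the same gene started within 1 kb of the centre at ZNF566 (176 bases), ZNF529 (344 bases) and ZNF420 (22 bases). At ZNF404, ZNF565, ZNF699, ZNF582 and ZNF283 no annotated start of any kind lay that close.

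ZNF404 was open in its last exon and nowhere in its promoter window. Its last exon region (43872400 to 43873582, 1183 bases) reached percentiles 97.2, 90.2, 98.1 and 95.4 without UV and 91.9, 92.1, 93.2 and 95.8 post UV, WT before ASH1L-/-. ZNF565 had both, with a last exon region at percentiles 94.2 to 98.8 and a mean promoter percentile of 98.4. ZNF562 and ZNF420 were the most variable of the 9, at percentiles 5.67 to 92.5 and 4.33 to 85.7.

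**Figure D5:**
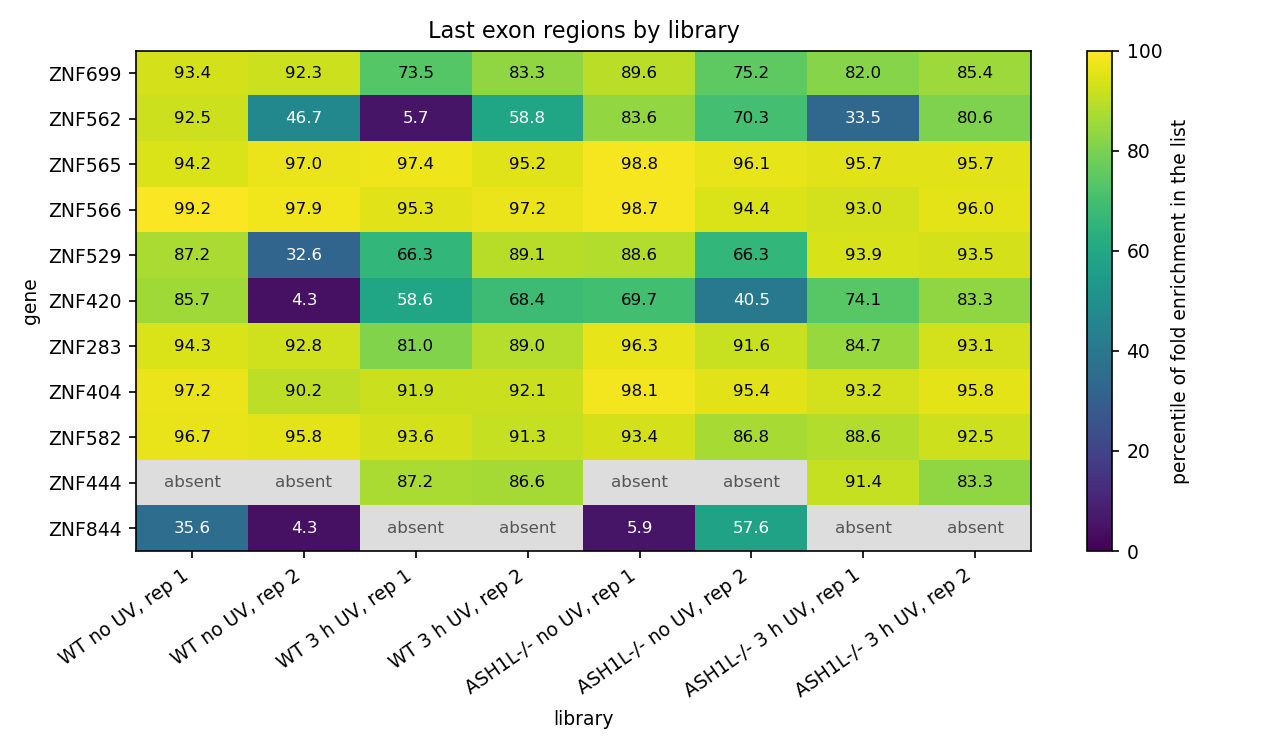
Each cell gives the percentile of the strongest last exon region within the list of that library (columns, colour scale from 0 to 100), and grey cells mark libraries without a region. The first 9 genes have a region in all 8 libraries; ZNF404, ZNF565 and ZNF566 stay at percentile 90.2 or above.

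The coding sequence at the centre of these sites is shown for ZNF404, which had no promoter region, and ZNF565, which had no annotated start nearby. Each is 252 bases of hg38, 5′ to 3′ on the strand of the gene. Capitals mark matches to GANAANCC, a pattern of the codons for the linker between neighbouring fingers. It also matches inside fingers, so that not every marked stretch is a linker. The pattern was chosen after the sites had been seen.
ZNF404, chr19:43872866-43873117, minus strand: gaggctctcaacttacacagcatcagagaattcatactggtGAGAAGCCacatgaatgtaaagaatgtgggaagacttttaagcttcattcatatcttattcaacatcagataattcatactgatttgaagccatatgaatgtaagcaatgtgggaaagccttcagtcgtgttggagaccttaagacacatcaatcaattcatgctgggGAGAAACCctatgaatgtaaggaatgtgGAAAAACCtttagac
ZNF565, chr19:36182925-36183176, minus strand: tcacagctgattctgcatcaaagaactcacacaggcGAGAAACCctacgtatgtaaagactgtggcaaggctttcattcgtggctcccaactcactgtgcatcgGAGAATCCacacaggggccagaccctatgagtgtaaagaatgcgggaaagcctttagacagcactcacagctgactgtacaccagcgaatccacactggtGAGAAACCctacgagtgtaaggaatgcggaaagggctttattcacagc

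The motif was a mark of ZNF last exons in general and not of the open ones. At least 3 matches on the coding strand were found in 88.4% of 249 ZNF last exons and in 3.11% of 1191 last exons of other protein-coding genes of chromosome 19. The median number was 11 in ZNF last exons, with a range of 0 to 39, and 0 on the opposite strand. Of 2510 distances between successive matches in ZNF genes, 48.8% were exactly 84 bases, the length of a finger with its linker. The 8 genes with a shared last exon site had a median of 9 matches. A median of 96.2% of 50-base windows of ZNF last exons occurred once in the genome, and 1 last exon was under 50%. For the 9 genes open in all libraries the median was 98.1%, and for the 169 without a region 95.2%.

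UV and genotype left few marks on the last exons. A last exon region in all UV and no unchallenged libraries was found at ZNF444 (0.175% of all genes), at percentiles 87.2, 86.6, 91.4 and 83.3. The site, however, extended outside the exon, with 11.2% of its 969 bases in the last exon, and 6 libraries had a region over the site as a whole. The reverse was found at ZNF844 (0.0848% of all genes), at percentiles 35.6, 4.33, 5.86 and 57.6, where the 4 unchallenged libraries had regions at 3 different sites. No ZNF last exon was open in ASH1L-/- cells alone (0 genes, against 0.0795% of all genes).

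Over whole genes, including 1 kb upstream, the 249 genes held 983 sites, formed by joining the regions of the 8 lists. Introns held 575 of them, promoters 265, last exons 99, other exons 29 and promoters of other genes 15. Promoter sites were stable, with 72.5% present in all 8 libraries, compared with 10.3% of intron sites and 8.08% of last exon sites. Among all genes, 11.9% of 287030 sites were in all 8 libraries. The 7 sites present in ASH1L-/- cells alone were all promoters (background 0.158%), and 0 were in WT cells alone (background 0.0773%).

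After UV, 5 sites over ZNF genes were gained (0.663% of all sites) and 1 was lost (0.0801%). The gained sites were in introns of ZNF426, ZNF536 and ZNF578, in an exon of ZNF558 and at a second site in the promoter window of ZNF562. That in ZNF426 was the strongest, at percentiles 92.7, 87.5, 79.6 and 88.4. The lost site was in an intron of ZNF675.

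Some of these genes shared a promoter. In 7 pairs the canonical starts were within 1 kb of each other, such as ZNF565 with ZNF146 and ZNF568 with ZNF829, and the same region was then counted for both genes. In all, 36 of the 249 genes had a start of another protein-coding gene within 1 kb.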

How the data were processed

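The authors trimmed reads with cutadapt 1.9.1, aligned them with Bowtie2 2.4.5 to hg38 without chromosome Y, removed duplicates and reads with a mapping quality below 30, and called peaks in each library with MACS2 2.2.7.1, without pooling replicates. The deposited lists reach a p-value of 0.01. They give the authors' fold enrichment, a ratio of pileup to local background, their −log10 p-value and −log10 q-value, and a score, which was not used. None was normalised between libraries.

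Records with the same interval were joined into a region with the highest fold enrichment, which was ranked within its list as a percentile. GENCODE release 44 gave genes; promoters were ±1000 bases around canonical starts; any overlap counted. Clusters were split at gaps above 1 Mb. Depth was recovered from fold enrichment and p-value, which MACS2 derives from pileup and background. Uniqueness was counted in 50-base windows. RefSeq promoters on hg38 matched 218 of 249 genes.

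Percentiles of genes with a region in all 8 lists were fitted across all genes with limma 3.58.1 in R 4.3.3, with terms for the 4 groups. A single gene was tested by an exact permutation test over 70 assignments. The programs were tested on simulated data. Replicate numbers do not pair the libraries (correlation of deviations between groups -0.09 to 0.11). Interval lists give no read counts, so a gene without a region is below the limit of the list, not shown to be closed.

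The genes and lists were chosen with earlier results of these data known. Named genes were, per contrast, up to 5 in each direction without overlap and with the largest difference, all with presence in 4 against 0 libraries, the 10 highest promoters, up to 10 with no promoter region, up to 10 with a last exon region in all libraries, and a fixed list (ZNF274, ZNF91, ZNF93, ZNF350, ZNF420, ZNF382, ZNF568, ZNF536, ZNF331, ZNF541). Alternatives covered the ranking, q-value, starts, list length, absent regions and each left-out library.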

Additional observations from a re-analysis of the deposited data

Results flagged for a closer look

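ZNF568, a KRAB zinc finger gene whose start lies within 1 kb of that of ZNF829, was set apart because UV moved its promoter percentile in opposite directions in the genotypes. In WT cells it was 98.8 and 97.3 unchallenged and 96.9 and 96.3 post UV. In ASH1L-/- cells it was 96.3 and 96.7 unchallenged and 98.3 and 99.2 post UV. The UV effect in WT minus that in ASH1L-/- cells was -3.72 percentile points, and this UV by genotype term did not pass in limma (adjusted p 0.9999). Every library moved in this opposite manner at 9 of 197 ZNF genes (4.57%) and at 2.05% of all genes tested.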

How the results depend on the processing

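Of 67 alternatives to 13 results, other than left-out libraries, 58 kept the value within its limits. For counts only the total was compared, not its direction, and several totals were 0 throughout. ZNF genes without overlap for UV thus counted as kept among promoters. They numbered 26 (3 higher, 23 lower) by the main ranking and 32 (23 higher, 9 lower) among promoters. For the UV contrast, limma called 0 ZNF genes on the percentile, 11 when ranked among promoters and 25 on the logit, and the median UV difference reversed to 4.45 points among promoters. For genotype, limma called 0. With absent regions at 0 it called 17 of the 16453 genes fitted. Of the 223 ZNF genes fitted it called 2, ZNF233 and ZNF132. This largely restates that their regions were absent from WT lists, apart from the weak ZNF233 region in replicate 2 of the unchallenged WT cells. The fit with the replicate number as a block called 0 ZNF genes for UV, genotype and their interaction (lowest adjusted p for UV 0.0964). Of the 7 promoters open in ASH1L-/- cells alone, ZNF431, ZNF726 and ZNF132 stayed with a q-value of at most 0.01, where ZNF233 joined them (4 genes, and 4 sites over gene spans); the same 4 genes remained above percentile 50 of each list, an alternative added after the data were seen. With a q-value below 0.05 there were 5, namely 4 of the 7 (ZNF431, ZNF493, ZNF726 and ZNF132) and ZNF233. With lists of equal length there were 6, without ZNF93, and with any annotated start 6, without ZNF431. Genotype differences without overlap, 3 higher and 3 lower, were 7 and 2 with a q-value below 0.05, 5 and 1 among promoters, and 3 and 5 with lists of equal length. With at least 50% of a site covered 3 sites separated the genotypes. With the summit inside the last exon 1 gene separated UV, instead of 2.

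Each library was left out in turn, which leaves 1 library in its group. The limma calls given above for fits without a WT library post UV carry this limit, and calls from the other such fits are not given. The calls changed most without replicate 1 of WT cells post UV, and the cause was not tested. The median UV difference was -0.94 to -0.53. Promoters without overlap numbered 28 to 38 for UV and 9 to 16 for genotype, with fewer libraries to separate. Presence separated 7 to 8 promoters by genotype, 0 to 1 by UV, 0 to 0 last exons by genotype and 2 to 4 by UV. Sites numbered 6 to 11 for UV and 7 to 10 for genotype. Leaving out a library can only keep or add such promoters, last exons and sites, so these counts could not fall. The promoter exceeded the last exon by 35.4 to 40.7 points. The lists' unequal depth limits what the absence of a weak region can show.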
